A study of Mus musculus with 11 samples.

Results

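Bone morphogenetic proteins (BMPs) are secreted ligands of the TGF-beta family. They bind pairs of serine/threonine kinase receptors, the receptors phosphorylate SMAD1, SMAD5 and SMAD9, and these act with SMAD4 to switch on target genes, of which the Id genes are the best known. Id proteins are helix-loop-helix factors with no DNA-binding region that hold back differentiation factors. BMP signalling is known to favour the early mesenchymal-to-epithelial step of fibroblast reprogramming, and with LIF it helps to keep mouse embryonic stem cells undifferentiated. The genes described here are 10 of 22180 genes that a probe set naming a single gene measures in the series: the ligands Bmp4, Bmp2 and Bmp7, the receptor Bmpr1a, the targets Id1, Id2 and Id3, and the inhibitors Smad6, Bambi and Grem1. They were listed by name, each had 1 probe set, and their values on all 11 arrays are described.

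Each array holds total RNA of 1 sample of mouse cells, so groups are unreplicated. The 8 reprogramming samples came from passage 4 embryonic fibroblasts heterozygous for the rtTA activator at the Rosa locus, infected with tetO viruses for Klf4, Oct4, Myc and Sox2 and kept in fibroblast medium with doxycycline. At day 6 and at day 9 of doxycycline they were taken as CD49d+ cells, CD73+ cells, CD73- cells and unsorted cells, and the sorted ones were double sorted. The labels call the CD49d+ and CD73+ cells poised and the CD73- cells non-poised. The controls were passage 4 fibroblasts of the same genotype with no infection in their label (MEF), the partially reprogrammed line SC4 at passage 10, and V6.5 embryonic stem cells at passage 11 (ESC). Fibroblast medium held 10% cosmic calf serum, SC4 medium 15%, and ESC medium 3% with 12% replacement serum and LIF, so medium and cell type cannot be told apart between the controls.

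The deposited values are linear intensities with a floor of 100, so a value of 100 is an upper bound. Of 10 fibroblast markers all were above the floor in MEF, with a summed intensity of 41980, against 5200 to 10214 on the reprogramming arrays, 3854 in ESC and 2604 in SC4. Of 9 measured stem cell markers all were above the floor in ESC, with a sum of 25638, against 1379 to 2139 on the reprogramming arrays, 1643 in SC4 and 1100 in MEF. Esrrb and Zfp42 lay at the floor on every array but ESC, and SC4 had Nanog at the floor as well. Tests were run on the 8 reprogramming arrays with limma, with terms for population and for day, over 13313 genes above the floor on at least 1 of them. The standard error (SE) therefore starts from how far a gene's population differences disagree between the 2 days, with unsorted cells included. limma then draws this spread towards a value shared by all genes, with 2.12 prior beside 3 residual degrees of freedom. The SE is thus not the spread of that gene alone. The cultures of the 2 days are not labelled as separate, so the p-values measure no more than this moderated spread, which may be technical.

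A group of 4 members, Bmp4, Id3, Smad6 and Grem1, lay at least 2-fold below MEF in CD49d+, CD73+ and CD73- cells at both days. Of 14301 genes above the floor on any array, 7.73%, 8.82% and 8.89% lay that far below MEF at both days in these populations. Their upstream sequences are shown because these members lay low together. RefSeq windows on GRCm38.p6 were available for 6 of the 10 members. The 250 bases before the gene start follow for these 4, with 2 motifs in capitals: GGCGCC, the GC-rich part of the BMP response element known from Id genes, and GTCT, the SMAD binding element, searched on both strands as GTCT or AGAC. The letters of these motifs cannot overlap. The windows are chr14:46390670-46390919 (minus strand) for Bmp4, chr4:136143572-136143821 (plus strand) for Id3, chr9:64022060-64022309 (minus strand) for Smad6 and chr2:113758649-113758898 (minus strand) for Grem1.
Bmp4: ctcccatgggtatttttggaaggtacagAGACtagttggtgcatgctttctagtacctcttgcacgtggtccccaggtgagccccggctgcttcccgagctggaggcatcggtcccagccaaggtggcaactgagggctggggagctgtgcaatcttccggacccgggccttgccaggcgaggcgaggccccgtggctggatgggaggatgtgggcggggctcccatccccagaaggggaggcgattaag
Id3: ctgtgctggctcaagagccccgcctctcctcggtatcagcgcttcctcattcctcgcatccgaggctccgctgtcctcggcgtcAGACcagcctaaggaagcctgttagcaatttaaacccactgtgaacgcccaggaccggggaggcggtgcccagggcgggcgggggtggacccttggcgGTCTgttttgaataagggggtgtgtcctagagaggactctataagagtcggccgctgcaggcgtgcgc
Smad6: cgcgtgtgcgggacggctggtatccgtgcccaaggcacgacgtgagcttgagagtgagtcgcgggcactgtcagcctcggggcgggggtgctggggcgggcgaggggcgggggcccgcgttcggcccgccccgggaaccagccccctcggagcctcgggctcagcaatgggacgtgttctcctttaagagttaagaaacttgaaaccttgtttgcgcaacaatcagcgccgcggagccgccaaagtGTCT
Grem1: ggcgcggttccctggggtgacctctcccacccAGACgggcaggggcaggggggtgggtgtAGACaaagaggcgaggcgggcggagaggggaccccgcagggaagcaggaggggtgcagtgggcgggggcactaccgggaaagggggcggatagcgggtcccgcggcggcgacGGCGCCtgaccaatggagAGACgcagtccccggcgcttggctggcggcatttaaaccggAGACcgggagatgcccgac
The Bmp4 window held GTCT 1 time, that of Id3 2 times, that of Smad6 1 time and that of Grem1 4 times, and GGCGCC was found in that of Grem1 alone among the 4. Of all 32851 promoter windows of this length 82.9% held GTCT and 9.59% held GGCGCC. Over the 6 member windows the counts were 5 and 3, the other two being those of Id2 and Bmpr1a. A match is a description of the letters and not a bound site.

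Bmp4, the ligand of the group with the widest range, was high in MEF and ESC and low in SC4 and in all reprogramming cells. Its intensity was 1911 in MEF and 1034 in ESC. At day 6 it was 272 in CD49d+, 258 in CD73+, 206 in unsorted and 100, the floor, in CD73- cells. At day 9 it was 189, 240.4, 232 and 121 in the same order, and SC4 had 111. Every reprogramming array and SC4 lay below both MEF and ESC, and the CD73- arrays lay lowest of the 8. Relative to MEF, Bmp4 was 7.03-fold lower in day 6 CD49d+ cells and 1.85-fold lower in ESC. In day 6 CD73- cells it was at least 19.1-fold lower. Day 9 CD73- cells and SC4 lay so close to the floor that no exact fold is given for them.

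Within the reprogramming cultures Bmp4 was higher in poised than in CD73- cells, and unsorted cells lay above CD73- cells as well. Unsorted cells at day 9, at 232, also lay above CD49d+ cells, at 189. At day 6 CD49d+ cells had at least 2.72-fold and CD73+ cells at least 2.58-fold the intensity of CD73- cells. At day 9 the ratios were 1.56 and 1.98, and they are imprecise because CD73- cells, at 121, lay close to the floor. Both poised arrays lay above the CD73- array of their day, which was not compared with other genes. The fitted log2 difference was 1.11 ± 0.174 (SE) for poised minus CD73- cells, with an adjusted p of 0.0239 (limma, Benjamini-Hochberg), and it may understate the true one because 1 of the CD73- arrays is at the floor. Each poised population passed on its own, CD73+ at 1.18 ± 0.201 (adjusted p = 0.0364) and CD49d+ at 1.04 ± 0.201 (adjusted p = 0.0354). Both poised populations still had at least 7.03-fold less Bmp4 than MEF.

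The other ligands were at or near the floor outside ESC. Bmp7, a ligand of kidney and eye development, had 623 in ESC, 168 in SC4 and 132 in MEF, and it ran from 117 to 145 with a median of 127 on the 8 reprogramming arrays. The ratio of ESC to MEF was 4.72, with MEF itself close to the floor, so the size of the difference is imprecise. The poised minus CD73- difference was -0.03 ± 0.0795 (adjusted p = 0.874). Bmp2, a ligand of bone and heart formation, lay at 100 on every array but MEF, where it had 103, so it was not tested and no fold is given. Bmpr1a, a type I receptor that binds both Bmp2 and Bmp4, was measured well above the floor throughout. Its range on the reprogramming arrays was 1284 to 1527 with a median of 1417, against 1664 in MEF, 1057 in SC4 and 1359 in ESC. Its poised minus CD73- difference was -0.06 ± 0.0514 (adjusted p = 0.538).

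**Figure D1:**
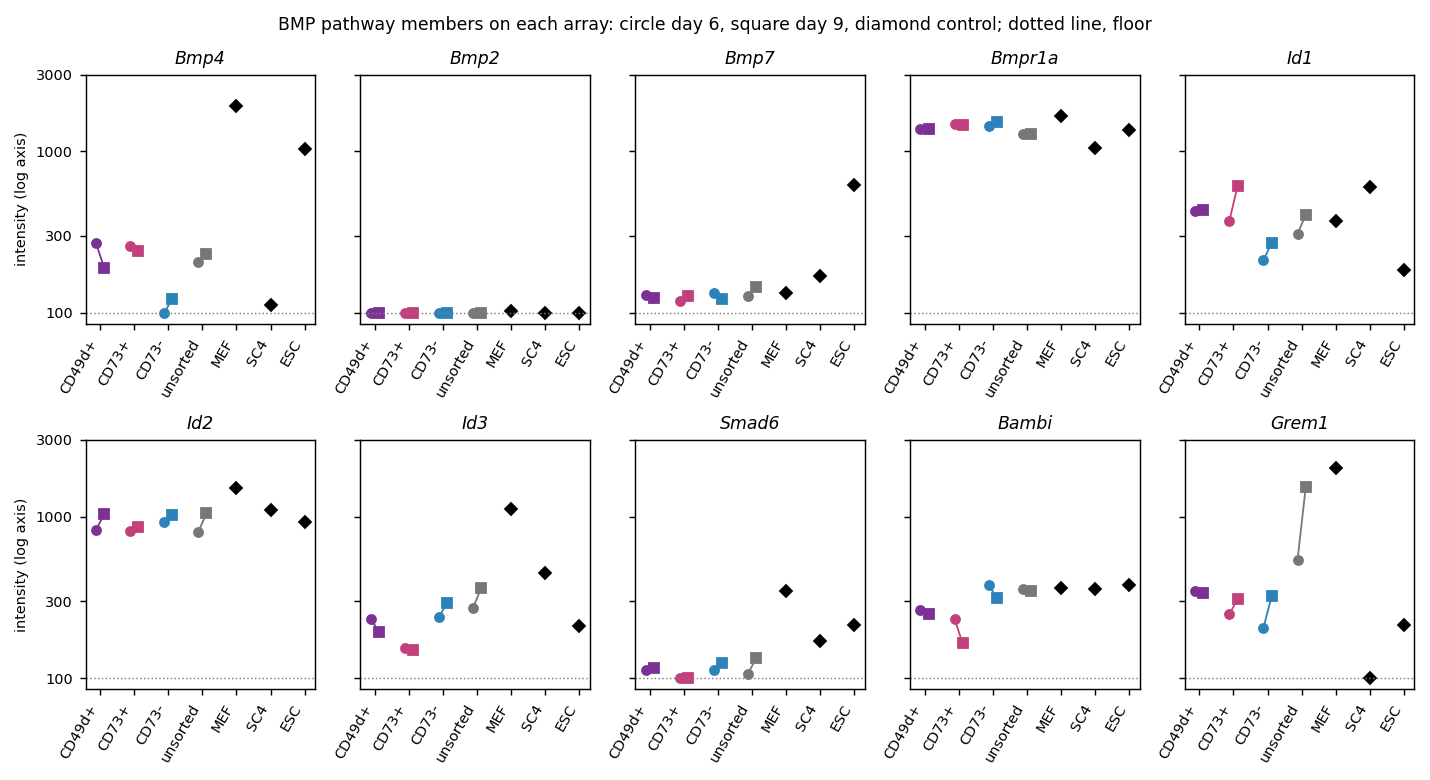
Intensity (log axis) of the 10 members on each of the 11 arrays, with 1 point per array; circles are day 6, squares day 9, joined within a population, diamonds the controls, and the dotted line the floor at 100. Bmp4 falls from 1911 in MEF to between 100 and 272 on the reprogramming arrays and stands at 1034 in ESC, while Grem1 reaches 1526 in day 9 unsorted cells.

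The Id genes, which are read as targets of BMP signalling, did not move as a block. Id1 followed the sort: it had 424 in CD49d+, 371 in CD73+, 308 in unsorted and 212 in CD73- cells at day 6. At day 9 it had 432, 608, 406 and 271. The poised arrays lay above the CD73- arrays at both days, with the unsorted arrays between them. MEF had 372, SC4 600.5 and ESC 184, so the poised values were near or above that of MEF and those of CD73- cells below it. The poised minus CD73- difference was 0.91 ± 0.140 (adjusted p = 0.0226), or 1.88-fold. CD73+ cells passed at 0.99 ± 0.162 (adjusted p = 0.0343) and CD49d+ cells at 0.84 ± 0.162 (adjusted p = 0.0354).

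Id3 stood the other way round without passing. Its intensity at day 6 was 233 in CD49d+, 154 in CD73+, 239 in CD73- and 273 in unsorted cells. At day 9 it was 193, 149, 292 and 362. MEF had 1111, SC4 449.7 and ESC 209, so every other array was well below MEF and the CD73+ arrays were the lowest of all 11. Relative to MEF, Id3 was 7.21-fold and 7.44-fold lower in CD73+ cells at days 6 and 9 and 4.64-fold and 3.81-fold lower in CD73- cells. The CD73+ minus CD73- difference was -0.80 ± 0.176 and missed the threshold (adjusted p = 0.0593), as did poised minus CD73- at -0.56 ± 0.152 (adjusted p = 0.0784). With each array centred on its median both passed (adjusted p = 0.0215 and 0.034). Quantile normalization brought the CD73+ difference past the threshold (adjusted p = 0.0356), as did the filter at 4 arrays (0.0372) and leaving out the day 9 CD49d+ array (0.0492). For the first of these contrasts the adjusted p ran from 0.0215 to 0.345 over the alternatives, and for the second from 0.034 to 0.366.

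Id2 was the flattest of the Id genes. It ran from 805 to 1048 with a median of 893 on the reprogramming arrays, against 1499 in MEF, 1096 in SC4 and 932 in ESC. All 10 other arrays lay below MEF, by 1.37-fold to 1.86-fold. The poised minus CD73- difference was -0.14 ± 0.0824 (adjusted p = 0.313). Across the 8 reprogramming arrays, which share the culture scheme and the sorts, log2 intensities of Id1 ran with those of Bmp4 (Pearson r = 0.81 across 8 arrays, given as a description) and against those of Bambi (r = -0.82). Over all 11 arrays the first value was -0.19, MEF and ESC having the highest Bmp4 but only 372 and 184 of Id1. Id3 ran with Smad6 (r = 0.85 over 8 arrays, 2 of them at the floor for Smad6 and the others near it, and 0.81 over 11). These pairs are among the largest correlations of the members and not the only ones. Id3 with Bambi had 0.83 over 8 arrays and 0.59 over 11, and Id2 with Smad6 had 0.82 over both.

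Of the inhibitors inside the cell and in its membrane, Bambi fell in poised cells and Smad6 did not pass. Smad6, which blocks BMP receptors and is itself a BMP target, had 346 in MEF, 212 in ESC and 169.9 in SC4. It was at the floor in CD73+ cells at both days and ran from 106 to 133 on the other 6 reprogramming arrays. It was at least 3.46-fold lower in CD73+ cells than in MEF, and more than 2-fold lower on the other 6 arrays, which lay near the floor. The poised minus CD73- difference was -0.16 ± 0.0824 (adjusted p = 0.279). The CD73+ minus CD73- difference was -0.25 ± 0.0951 (adjusted p = 0.175), a fit with 1 side at the floor.

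Bambi encodes a membrane protein that resembles a type I receptor without the kinase and dampens TGF-beta family signals. At day 6 it had 377 in CD73-, 356 in unsorted, 264 in CD49d+ and 232 in CD73+ cells, and at day 9 it had 315, 347, 249 and 164. MEF, SC4 and ESC had 361, 354 and 379.9, so the 4 poised arrays were the lowest of the 11. The poised minus CD73- difference was -0.62 ± 0.109 (adjusted p = 0.0296), or 1.54-fold lower. CD73+ cells passed alone at -0.82 ± 0.126 (adjusted p = 0.0304). CD49d+ cells stood at -0.43 ± 0.126 (adjusted p = 0.0914), and the difference between CD49d+ and CD73+ cells, 0.39 ± 0.126, did not pass (adjusted p = 0.148).

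**Figure D2:**
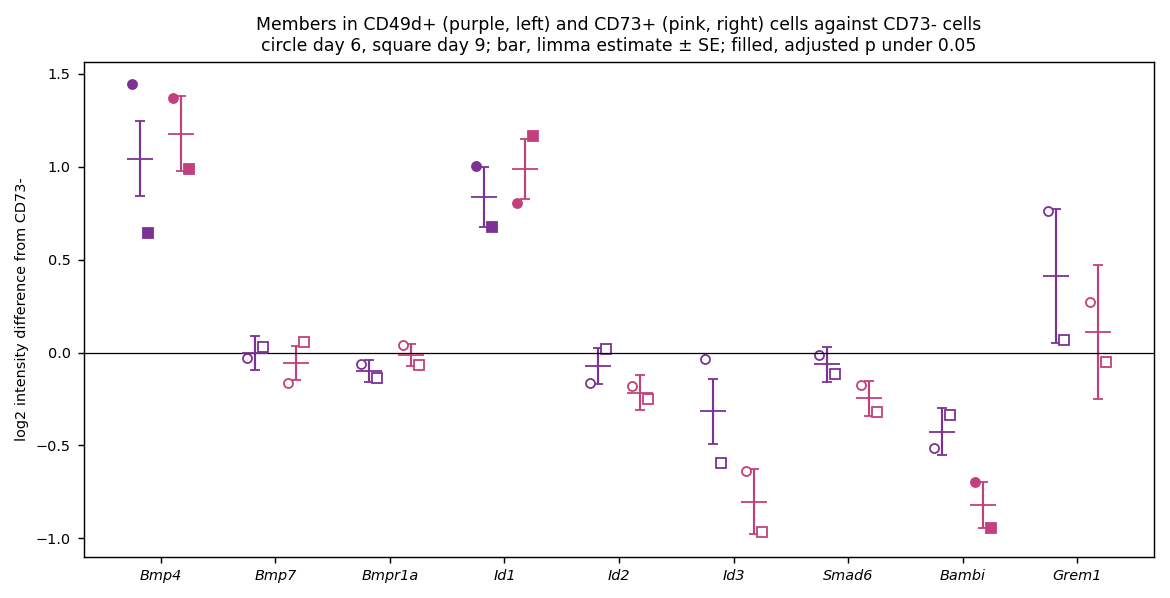
Log2 intensity difference of CD49d+ (purple, left of each pair) and CD73+ cells (pink, right) from CD73- cells for the 9 members tested; circles are day 6, squares day 9, the crossbar with whiskers is the limma estimate ± SE, and filled points mark an adjusted p under 0.05. Bmp4 and Id1 are above 0 at both days in both populations and Bambi is below 0, while Id3 is lower in CD73+ cells by 0.80 without passing.

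Counted together, 2 of the 9 members tested rose in poised against CD73- cells (Bmp4 and Id1) and 1 fell (Bambi). Of all 13313 genes tested, 7.16% were called higher and 4.85% lower in this contrast. The same 3 passed between CD73+ and CD73- cells, where 5.06% of genes were called higher and 2.94% lower. Bmp4 and Id1 passed between CD49d+ and CD73- cells, where 7.69% were called higher and 5.66% lower. Of all calls in the poised contrast 59.6% were higher, against 48.8% with each array centred on its median and 52.9% with quantile normalization. In the CD73+ contrast 63.2% were higher, against 55.9% with centring and 50.9% with quantile normalization. In the CD49d+ contrast 57.6% were higher, against 45.5% with centring and 57% with quantile normalization. The median log2 difference over the 9 members was -0.06 for poised minus CD73-, beside -0.01 over all genes tested. These contrasts share the CD73- arrays and are not independent of one another. Summed marker intensities of several cell types moved with the same contrast. For 8 epithelial markers the sum was 1962 in CD49d+ and 2001 in CD73+ cells against 1673 in CD73- cells at day 6. At day 9 it was 3289 and 2895 against 2301, though Cldn4 was lower in poised cells at both days. The sum of 6 skeletal muscle markers was 876 and 765 against 739 at day 6, and 886 and 1207 against 844 at day 9. Sums of keratinocyte markers were lower in poised cells at both days. The summed intensity of 7 endothelial markers was higher. At day 6 it was 1805 in CD49d+ and 2212 in CD73+ cells against 1067 in CD73- cells, and at day 9 it was 1730 and 2353 against 1322. The largest single part of each sum was Tek, with 1055 to 1673 in poised and 459 and 633 in CD73- cells. Markers at the floor enter the sums at 100 each. Cldn5 was also higher in poised cells, with 121 to 177 against 108 and 100. Pecam1 went the other way at day 9, with 189 in CD73-, 140 in CD73+ and 100 in CD49d+ cells. Emcn and Esam did not rise above 100 in any of the 8 reprogramming samples, and 3 to 5 of the 7 markers were at the floor on each poised array and 5 on each CD73- array. The part of any of these markers in the members' differences was not tested.

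Each of these calls ended when single arrays were left out, while the sign of Bmp4, Id1 and Bambi held in every setting run. Taking away any one of the 6 arrays of CD73+, CD73- and unsorted cells, at either day, ended the Bmp4 and Id1 calls in the poised contrast. Over 15 alternatives, each array left out among them, the adjusted p (limma) of Bmp4 ran from 0.0045 to 0.158 and its difference from 0.89 to 1.32. The adjusted p of Id1 ran from 0.00663 to 0.152 and its difference from 0.80 to 1.03. The Bambi call ended without any array but day 9 CD49d+, and its adjusted p ran from 0.0116 to 0.184, with differences of -0.72 to -0.53. Leaving out the same 6 arrays ended the CD73+ calls of Bmp4 and Id1, and any array but day 9 CD49d+ ended their CD49d+ calls. With p-values adjusted over all 22180 named genes no member passed in either of these contrasts. Without the day term Bmp4 kept its call (adjusted p = 0.0217) and Id1 (0.0655) and Bambi (0.0603) lost theirs in poised against CD73- cells.

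Between CD49d+ and CD73+ cells, the 2 poised gates, no member passed (limma, 0 of 9, 2 at an unadjusted p under 0.05, namely Bambi and Id3). Here 0.00751% of all genes were called higher and 0.0225% lower, 4 genes in all, 1 of them higher. The largest differences were those of Id3, 0.49 ± 0.176 higher in CD49d+ cells (adjusted p = 0.183), and of Bambi, given above.

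Grem1, a secreted antagonist that binds BMP2 and BMP4 and is made by fibroblasts, had an unusual distribution. It had 2007 in MEF, 213 in ESC and 100, the floor, in SC4. At day 6 it had 542 in unsorted, 347 in CD49d+, 248 in CD73+ and 205 in CD73- cells. At day 9 it had 1526 in unsorted cells, against 336, 309 and 320.4 in the sorted ones. The unsorted array at day 9 thus lay 4.55-fold above the highest sorted population of that day, and at day 6 it lay 1.56-fold above. Of 13313 genes 0.623% lay 2-fold or more above every sorted population at day 9, and Grem1 was the only one of the 9 members tested to do so. At day 6 0.331% of genes and 0 of the 9 members did.

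Some markers of other cells were also high in the unsorted cells. The summed intensity of the 10 fibroblast markers at day 9 was 10214 in unsorted cells and 5200 to 6448 in the sorted ones. Of these markers all but Prrx1 and Col3a1 were highest in unsorted cells at day 9. Prrx1 had 2469 there, 3125 in CD49d+ and 2991 in CD73+ cells, and Col3a1 had 452 there and 509 in CD73- cells. The sum of 5 measured keratinocyte markers at day 9 was 3127 against 787 to 1153. At day 6 the fibroblast sum was 7356 in unsorted cells, below the 9801 of CD49d+ cells, where Grem1 was lower, and the keratinocyte sum was 2947 against 639 to 1385. In MEF, where Grem1 was highest, the keratinocyte sum was 581. The sum of 8 epithelial markers was likewise highest in unsorted cells. It was 2679 against 1673 to 2001 at day 6 and 3872 against 2301 to 3289 at day 9. Cdh1, Cldn3, Cldn4, Krt8 and Krt18 were highest there at both days, but the other epithelial markers were not. At day 9 Epcam had 436 in unsorted and 787 in CD49d+ cells, and Ocln 233 against 256 to 546. Esrp1 had 129 in unsorted and 145 in CD49d+ cells at day 9. The sum of the endothelial markers was not highest in unsorted cells, with 1231 and 1450 there. Of the keratinocyte markers, Trp63 and Krt15 were at the floor on all 11 arrays. The part of these cells in the Grem1 values was not tested. In bulk RNA, fewer cells of a type and less RNA per cell cannot be told apart, for Grem1 or for any member that was high in MEF.

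Against MEF, SC4 had 20.1-fold or more less Grem1, and ESC 9.43-fold less. Sorted cells had 5.78-fold to 9.78-fold less, but day 9 unsorted cells only 1.32-fold less. Grem1 did not pass between poised and CD73- cells (0.26 ± 0.312, adjusted p = 0.651), and on the 6 sorted arrays alone it did not pass either (0.26 ± 0.155, adjusted p = 0.342).

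**Figure D3:**
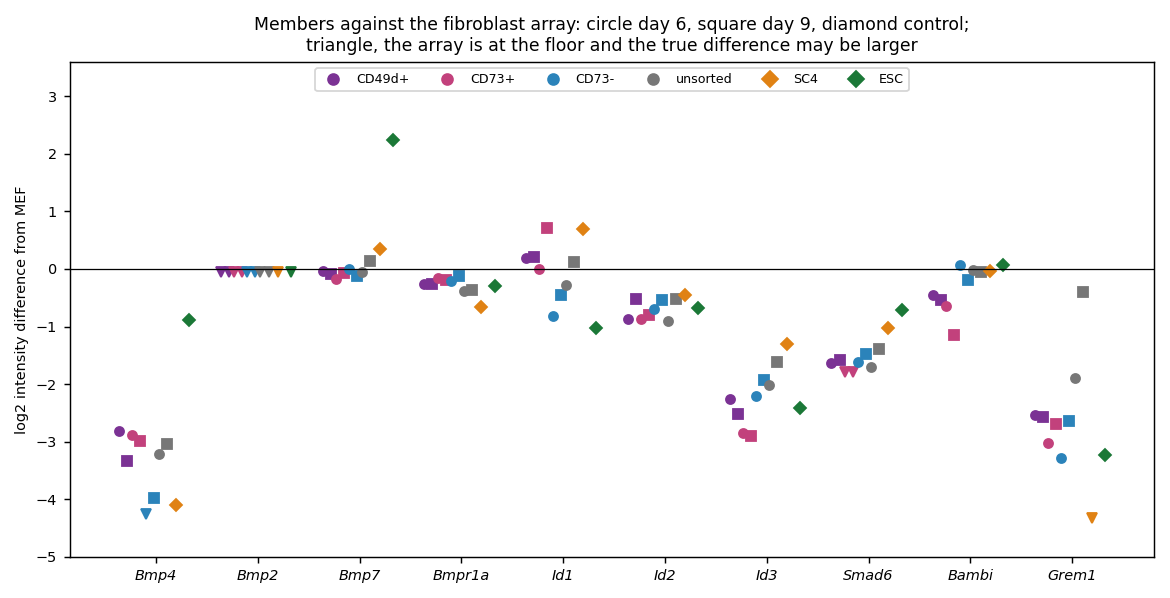
Log2 intensity difference of each array from MEF for the 10 members; circles are day 6, squares day 9, diamonds SC4 and ESC, and triangles mark an array at the floor, where the difference is a bound. Bmp4, Id3, Smad6 and Grem1 lie below 0 on every array, with Grem1 in day 9 unsorted cells close to MEF at -0.40, and the largest difference above 0 among the 10 members is that of Bmp7 in ESC, 2.24.

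The comparisons with MEF rest on a single MEF array, which they all share, and have no test. In CD73+, CD73- and CD49d+ cells alike, 4 of 10 members were at least 2-fold below MEF at both days and 0 above. The shares of all genes that much higher were 9.1%, 9.22% and 7.95%, beside the shares lower given above. In unsorted cells 3 members were lower (Bmp4, Id3 and Smad6) and 0 higher, with 7.22% and 7.26% of all genes. SC4 had 4 lower and 0 higher (11.5% and 11.0% of genes), and ESC had 3 lower (Id1, Id3 and Grem1) and 1 higher (Bmp7), with 11.9% and 12.0% of genes. The fibroblast marker sum was over 4 times as high in MEF as on any other array, and its part in these differences was not tested.

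Between days 6 and 9 no member passed (limma, 0 of 9, with 2 at an unadjusted p under 0.05, and 0.0% of all genes called). Id1 stood higher at day 9 in all 4 populations, by 0.37 ± 0.114 (adjusted p = 0.339), from 1.02-fold in CD49d+ to 1.64-fold in CD73+ cells. Id2 was likewise higher in all 4, by 0.24 ± 0.0673 (adjusted p = 0.317). Bambi was lower at day 9 in all 4, by 0.04 to 0.50 log2 units, with a fitted difference of -0.22 ± 0.0894 (adjusted p = 0.444).

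Among the other genes of the pathway, 61 of 66 listed had a probe set naming them alone and 50 were tested. In poised against CD73- cells 6 rose and 1 fell, against 7.16% and 4.85% of all genes, and their median log2 difference was 0.0 beside -0.01 for all genes. Calls of these genes, here and below, come from the fit as reported. They were not followed through the alternatives run for the members, so they are no firmer than the members' calls. Of the 7 ligands tested, Gdf5, a ligand of joint formation, rose by 0.999 ± 0.093 (adjusted p = 0.00786), and none of the other 6 passed. The Gdf5 intensity was 393 in CD49d+ and 277 in CD73+ cells at day 6, and 167 in CD73- cells. At day 9 it was 357, 299 and 161, and MEF had 167. Its intensities in all 4 poised arrays were above those of the 7 other arrays, SC4 being the next at 244. Another probe set naming Gdf5 alone had a lower mean log2 intensity and was not used, so these values are those of 1 probe set.

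Of 9 receptors and co-receptors tested, 2 rose and 1 fell. The co-receptor Rgmb rose by 0.67 ± 0.105 (adjusted p = 0.024), with 846 to 999 in poised and 547 to 657 in CD73- cells. Endoglin (Eng), a co-receptor for TGF-beta and BMP9, rose by 0.46 ± 0.0685 (adjusted p = 0.0212). Betaglycan (Tgfbr3), a co-receptor that binds TGF-beta, inhibin and BMPs, fell by 0.87 log2 units (SE 0.145, adjusted p = 0.0263), with 110.5 to 179 in poised, 222 and 288 in CD73- cells and 1194 in MEF. The type I receptor Acvr1 stood at 0.36 ± 0.0962 without passing (adjusted p = 0.0736), and in that contrast 0 of 4 SMAD transducers passed, with 1 at an unadjusted p under 0.05. Between CD73+ and CD73- cells 6 of the 50 genes rose and 1 fell, beside 5.06% and 2.94% of all genes, and 3 of those that rose had not passed in the poised contrast. These were Acvr1 at 0.66 ± 0.111 (limma adjusted p = 0.0358), the transducer Smad5 at 0.44 ± 0.0866 (adjusted p = 0.0476), and Tob1, which represses SMAD signalling, at 0.44 ± 0.0744 (adjusted p = 0.0358).

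Of 10 secreted inhibitors tested, the follistatin-like Fstl1 alone rose, by 0.81 ± 0.155 (adjusted p = 0.0355), with 4208 to 4903 in poised and 2175 and 3041 in CD73- cells. Of 7 inhibitors inside the cell 2 rose: the ubiquitin ligase Smurf1, which marks SMAD1 and SMAD5 for breakdown, by 0.63 ± 0.0893 (adjusted p = 0.0194), and Skil, a SMAD corepressor, by 0.44 ± 0.0954 (adjusted p = 0.0477). Of 9 further BMP targets tested none passed in this contrast, with 4 at an unadjusted p under 0.05. Id4, the remaining Id gene, stood at 0.50 ± 0.117 (adjusted p = 0.0566), and Hey1, a Notch and BMP target, at -0.90 ± 0.216 (adjusted p = 0.0602). Of 4 partners of Id proteins 0 passed and 0 had an unadjusted p under 0.05.

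**Figure D4:**
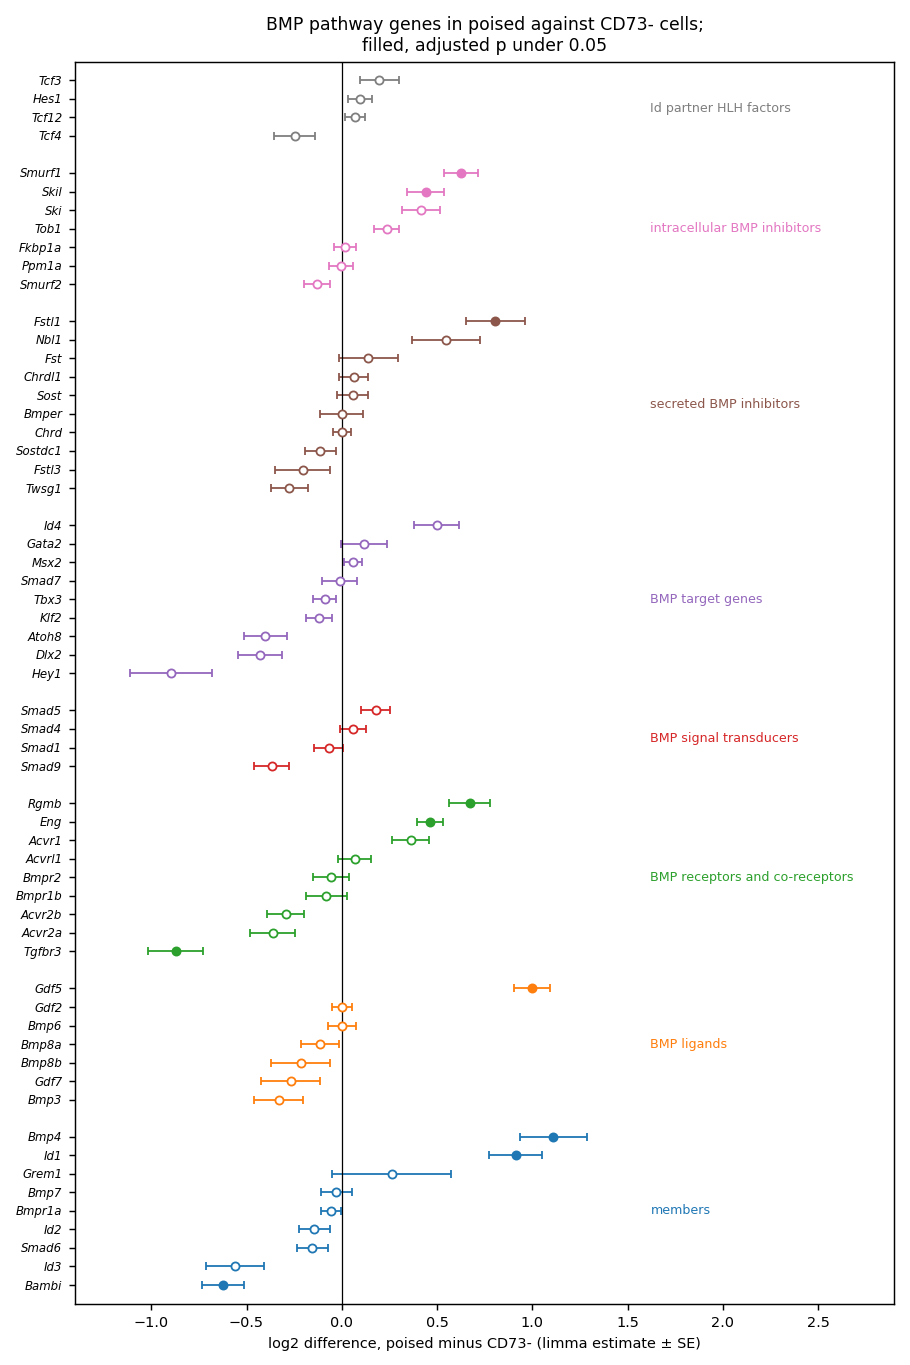
Log2 difference of poised minus CD73- cells (limma estimate ± SE, 8 arrays) for the 9 members and 50 other BMP pathway genes tested, by role; filled points have an adjusted p under 0.05. Bmp4, Gdf5, Id1 and Fstl1 have the largest called differences above 0, and Tgfbr3 and Bambi are the called genes below 0.

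Between ESC and MEF, 5 of the other pathway genes differed by at least 2 log2 units on these single arrays. Tgfbr3 was 10.0-fold lower in ESC, with 119 against 1194. The secreted inhibitors Nbl1 (5.47-fold), Fstl1 (4.27-fold) and Bmper (at least 4.19-fold) were lower as well. Gdf3, a TGF-beta family ligand known from pluripotent cells, was at least 7.97-fold higher, with 797 in ESC, 308 in SC4 and 100 on each of the other 9 arrays. Of 53 other pathway genes above the floor on any array, 6 were 2-fold or more higher and 13 lower in ESC, against 12.0% and 11.9% of all genes.

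Genes whose log2 intensity most resembled that of a member over the 11 arrays were sought among 12141 genes above the floor on at least 6 arrays, pathway and predicted genes aside. For Bmp4 they were Fam50a (Pearson r = 0.98), the interferon signal transducer Stat2 (0.97) and Mroh1 (0.97). Stat2, for example, had 1369 in MEF and 1018 in ESC against 157 to 422 on the other 9 arrays. For Id1 they were Tmem45a (0.97), the ephrin Efna5 (0.94) and Phldb1 (0.92). For Grem1 they were Mcfd2 (0.98), the decoy receptor Tnfrsf23 (0.96) and the smooth muscle actin Actg2 (0.95), and day 9 unsorted cells had 1042 of Tnfrsf23 and 1463 of Actg2, above the sorted cells of that day. These are descriptions over arrays that share cultures, and nothing was tested.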

How the data were processed

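The deposited values are linear intensities of Affymetrix gene arrays, 1 per group, with a floor of 100; 52.1% to 54.3% of the 41345 probe sets per array lie at it. Per the submitters' processing notes Partek was used; background correction, summarisation and scaling were not stated in any source read here. Probe sets were named from GEO's platform table: 23521 had 1 symbol, 1814 several and 16010 none, and only the first were used, which gave 22180 genes. From the deposited intensities log2 was taken with no rescaling. limma 3.58.1 (R 4.3.3) was fitted to 8 reprogramming arrays with 4 populations and 2 days, leaving 3 residual degrees of freedom, with Benjamini-Hochberg adjustment over 13313 genes and a threshold of 0.05. The script was tested on simulated data. Poised is the mean of CD49d+ and CD73+. Control arrays were described by fold only, against a bound where an array lay at the floor. The number of arrays limits the precision. Members and lists were chosen with earlier results of these data known. Other pathway genes were named where they passed in poised against CD73- cells or differed by at least 2 log2 units between ESC and MEF. Acvr1, Smad5, Tob1, Id4 and Hey1 were chosen after their values were seen. The 3 genes most like Bmp4, Id1 and Grem1 were named by Pearson correlation. Alternatives covered scaling, filters, probe set choice, the day term and each array left out. Promoter letters come from RefSeq.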

Additional observations from a re-analysis of the deposited data

Results flagged for a closer look

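The change of Bmp4 from day 6 to day 9 differed between poised cells and the CD73- and unsorted cells by -0.54 (SE 0.175, unadjusted p = 0.0324, limma adjusted p = 0.999866), in a fit with a separate day term that was added after the data were seen. The log2 change was -0.52 in CD49d+ and -0.10 in CD73+ cells, against 0.28 in CD73- cells, from the floor, and 0.17 in unsorted cells. For Id3 the same difference was -0.50 (SE 0.13, unadjusted p = 0.0149, limma adjusted p = 0.999866), with changes of -0.27 and -0.04 in poised cells and 0.29 and 0.40 in CD73- and unsorted cells. Neither passed after adjustment. Grem1 had -0.93 (SE 0.327, unadjusted p = 0.0415, limma adjusted p = 0.999866) in the same fit, with changes of -0.05 in CD49d+, 0.32 in CD73+, 0.64 in CD73- and 1.49 in unsorted cells. The poised minus CD73- difference of Bmp7 was below 0 at day 6 and above 0 at day 9, a change of 0.14 that was not tested and lies close to the floor.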

How the results depend on the processing

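With 1 array per group and 3 residual degrees of freedom, the calls depend on single arrays. The labels carry no replicate numbers to pair by, and the day term matches the populations within each day. Members called in poised against CD73- cells numbered 3 in the fit as reported, 1 without the day term and 0 to 3 when each array was left out. Between CD73+ and CD73- cells they numbered 3, against 0 with p-values adjusted over all 22180 named genes, 1 with the 6 sorted arrays alone, 1 with no day term and 0 to 4 with an array left out. Between CD49d+ and CD73- cells they numbered 2, against 0, 0 and 1 in the same settings and 0 to 2 with an array left out. Over all genes, poised calls numbered 1599, against 994 with that wider adjustment, and 1 to 1775 with an array left out. CD73+ calls numbered 1065, against 497 with the wider adjustment, 1657 with centring, 616 on the 6 sorted ones, 612 with no term for day and 0 to 1009 with an array left out. CD49d+ calls numbered 1777, against 1007 with the wider adjustment, 1183 with the sorted arrays alone and 1 to 1203 with an array left out. Between the poised gates 4 genes passed, against 584 with centring, 813 with quantile normalization, 262 with the filter at 4 arrays, 160 with no day term, 1 with the wider adjustment and 0 with any array left out, and 0 of 9 members passed in each. Of those calls 25% were higher as deposited, 42.1% with centring and 69.1% with quantile normalization. Between the days 0 genes passed, against 137 with centring, 5 with quantile normalization and 39 with the filter at 4 arrays, again with 0 of 9 members. At 3-fold in place of 2-fold, 2 members lay below MEF in SC4 in place of 4. Smad6 also fell short of 3-fold in CD73- and unsorted cells at day 9, and Id1 in ESC. Of the members' own values 570 kept direction and side of the threshold, 66 lost a call, 5 gained one (all Id3) and 25 changed sign, none of a called member in its called contrast. Most of the 570 were never called. The 66 all fell on the calls of Bmp4, Id1 and Bambi, each lost in 6 to 10 of its 15 alternatives. With an array left out, the poised minus CD73- difference of Bmp7 ran from -0.124 to 0.0677, passing 0 without day 6 CD73- or day 9 CD49d+ (0.000185). CD73+ minus CD73- ran from -0.151 to 0.0404 for Bmp7, from -0.0545 to 0.0301 for Bmpr1a and from -0.0779 to 0.299 for Grem1. CD49d+ minus CD73- ran from -0.0964 to 0.095 for Bmp7, which had 0.0203 with quantile normalization, and from -0.0204 to 0.847 for Grem1. CD49d+ minus CD73+ ran from -0.454 to 0.185 for Bmp4, from -0.00172 to 0.111 for Bmp7, from -0.131 to 0.737 for Grem1 and from -0.381 to 0.0819 for Id1. The day difference ran from -0.15 to 0.117 for Bmp4, from -0.0219 to 0.076 for Bmp7, from -0.00718 to 0.0286 for Bmpr1a and from -0.0102 to 0.215 for Id3. On the sorted arrays alone it was -0.0219 for Bmp7 and -0.0102 for Id3. The cause was not tested. Folds that involve values near the floor, as of Bmp7 and Smad6, are imprecise, and Bmp2 has none.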
